A study of Mus musculus with 9 samples.

Results

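The 42 genes described here are immediate-early genes, which growth signals switch on before any new protein is made, and genes of the negative feedback on mitogen-activated protein kinase (MAPK) signalling. They were chosen by gene name from the 54532 genes of the deposited table and no measured value served as a threshold. Earlier results of these data were known when they were chosen, so counts of members are descriptions. The list holds 24 immediate-early genes (AP-1, Egr, Ier, Klf and Zfp36 families with Myc, Maff, Nr4a1 and Srf), the Ets factors Etv4 and Etv5, and 16 feedback genes (Dusp, Sprouty and Spred families with Errfi1). Of the 42, 38 had enough counts to be tested, among 13326 genes tested in all.

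RNA was sequenced from RENCA, an established mouse renal cell carcinoma line, in 3 forms with 3 libraries each. Rescue cells (genotype label NDUFA4L2 +/+) carried a lentiviral NDUFA4L2 expression vector with a puromycin resistance cassette and were selected with puromycin; the series text describes them as made from the knockout line. Knockout cells (NDUFA4L2 -/-) were grown from single-cell colonies after a guide in the Cas9 plasmid PX458, and empty-vector cells (WT) carried an empty vector. The labels do not say how many colonies were used, whether empty-vector cells were cloned, or whether replicates were separate cultures, so the spread behind every p-value may be technical. All groups were grown in RPMI with fetal bovine serum, and serum itself feeds the pathway described here. Clone choice, lentivirus and puromycin cannot be told apart from loss or return of the gene.

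In this pathway a growth factor receptor activates Ras, Raf, MEK and ERK, and ERK phosphorylates transcription factors that bind to promoters already poised in the nucleus. The products of the immediate-early genes are mostly transcription factors themselves, such as the Fos and Jun proteins that pair to form AP-1, and their mRNAs are short-lived, in part because Zfp36 proteins bind AU-rich elements and bring about decay. The same signal induces its own brakes: dual-specificity phosphatases (Dusp) remove phosphate from ERK, JNK or p38, Sprouty and Spred proteins act on the steps between receptor and Raf, and Errfi1 blocks the EGF receptor.

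Library totals ran from 15164167 to 26643877 counts in rescue, 13106531 to 25305299 in knockout and 14685134 to 24172162 in empty vector. Genes of the mitochondrial genome took 2.24% to 2.65% of counts in rescue, 5.79% to 7.93% in knockout and 2.16% to 3.17% in empty vector. That share, also a sign of RNA quality, set knockout apart from both other groups, and its part in the results below was not tested. Some members, such as Spry1 and Dusp4, were lowest in knockout. Others, such as Etv4 and Errfi1, were at similar levels in rescue and knockout. With mitochondrial genes taken out before scaling, the counts of called members were the same in all 3 comparisons. This concerns the scaling only and not RNA quality. Ndufa4l2 had 73, 48 and 35 counts in rescue, 7, 8 and 6 in knockout and 12, 6 and 16 in empty vector, so its mRNA does not check the knockout label against empty vector; the labels say that clones were screened by qPCR. Of 11 kidney epithelial markers 8 were tested, led by Cdh16 and Krt8, and their summed level was 1344 to 1399 CPM (counts scaled to library size, with TMM factors) in rescue, 1551 to 1673 CPM in knockout and 1000 to 1225 CPM in empty vector, while Epcam and Krt19 had at most 1 count in a library.

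Levels between genes are compared per length, with the deposited FPKM. The tested members spanned 0.338 to 144 FPKM in rescue, 0.518 to 165 FPKM in knockout and 0.225 to 208 FPKM in empty vector, as group means, with medians of 8.96, 8.12 and 10.9 FPKM in that order of groups. Myc was the highest in rescue and in empty vector, and Jund was the highest in knockout. Fosb was the lowest in every group. Within AP-1, Jund made up 66.4% ± 1.13 of the summed FPKM of the 7 subunit genes in rescue, 65.3% ± 2.10 in knockout and 56.1% ± 4.70 in empty vector (SD, n = 3 each). In the same order of groups Jun made up 13.3% ± 0.591, 13.4% ± 1.04 and 20.1% ± 2.30, whereas Fos, the namesake of the family, made up 2.95% ± 0.0854, 2.09% ± 0.274 and 2.03% ± 0.465. Among the phosphatases Dusp1 led in all groups, with 28.7% ± 0.812 of the summed Dusp FPKM in rescue, 37.6% ± 1.66 in knockout and 31.8% ± 1.38 in empty vector.

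**Figure D1:**
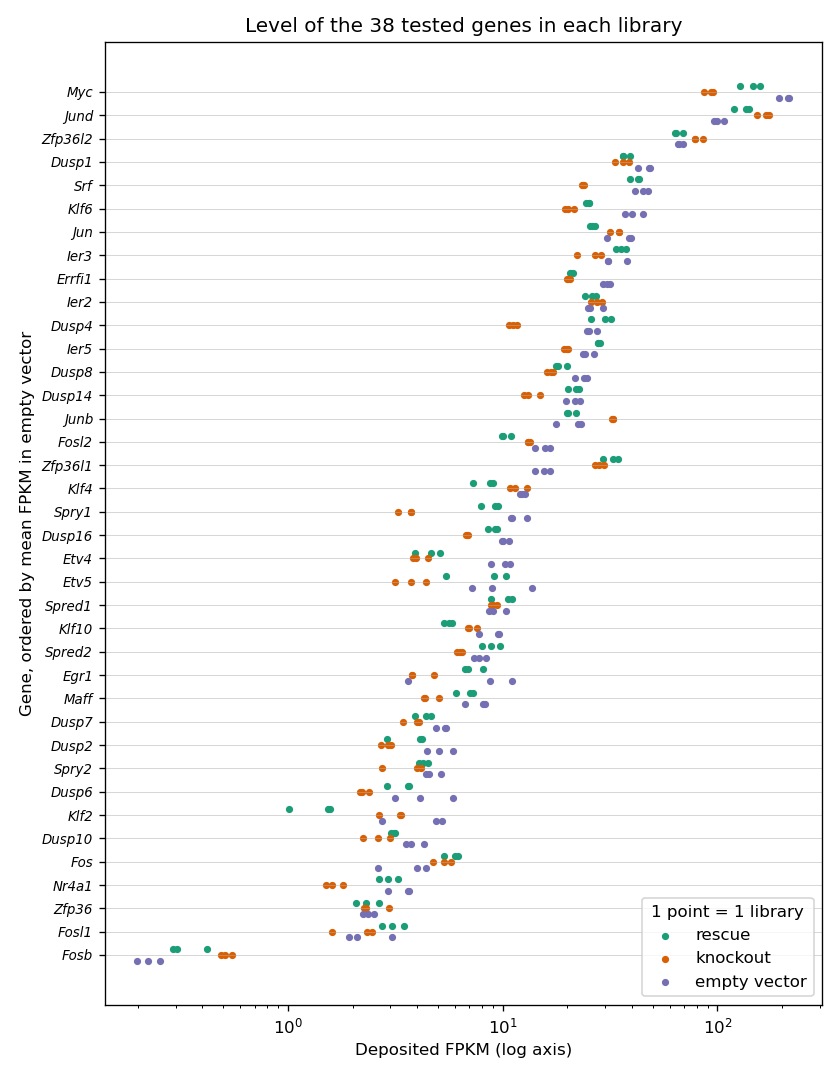
Deposited FPKM (log axis) of the 38 tested genes in each of 9 libraries, with rescue, knockout and empty vector offset from top to bottom within a row. Genes are ordered by their mean FPKM in empty vector, from Fosb at 0.225 to Myc at 208.

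Members too low to measure were Egr2, Egr3, Dusp5 and Spry4. Egr2, a zinc-finger factor related to Egr1, had 2 to 13 counts per library and did not pass the filter. Egr3, Dusp5 (a nuclear phosphatase of ERK) and Spry4 had no count in any of the 9 libraries, 176420742 counts in all. A count of 0 allows up to 3 counts, which is 0.107 to 0.248 CPM per library, for counting error only. Comparisons of these 3 genes were not possible at this depth.

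Promoter sequences are shown for 6 tested members whose promoter holds a motif of the factors that drive immediate-early transcription. RefSeq promoters (build GRCm38.p6) matched 32 of the 42 symbols. The motifs searched on both strands, from 250 bases before to 50 after the start site, were the CArG box bound by Srf, the cyclic AMP response element TGACGTCA bound by CREB and ATF proteins, and the AP-1 motif TGANTCA; the patterns do not overlap in the sequences printed. A CArG box was in the promoters of Srf, Zfp36, Egr2 and Dusp5, 4 of the 32 matched genes, against 1.81% of all 27025 genes in the table. The cyclic AMP response element was in those of Dusp1, Dusp8, Errfi1 and Maff, again 4 of 32, against 2.03% of all genes, and the AP-1 motif in that of Zfp36l1, 1 of 32, against 8.97%. Counted per promoter, over 32851 promoters, the shares were 1.63%, 1.79% and 7.81%. A match of letters is a description and not a binding site. Members not listed may have had no matched promoter, or may hold a motif outside the bases searched. Shown in lower case, 5′ to 3′, are the 200 bases before the start site for the 6 members with a motif and the largest absolute change of knockout against empty vector, with the motifs in capitals. Srf (chr17:46556163-46556362 on the minus strand) has CArG boxes starting 82 and 62 bases upstream of the start site, and Zfp36l1 (chr12:80113014-80113213 on the minus strand) has its AP-1 motif 129 bases upstream. In the others the cyclic AMP response element starts 29 bases upstream for Maff (chr15:79347320-79347519 on the plus strand) and 51 for Errfi1 (chr4:150854870-150855069 on the plus strand), each counted from that start site of the gene whose promoter holds the motif. It stands 107 and 63 bases upstream for Dusp8 (chr7:142095285-142095484 on the minus strand) and 143 for Dusp1 (chr17:26508473-26508672 on the minus strand).
Srf: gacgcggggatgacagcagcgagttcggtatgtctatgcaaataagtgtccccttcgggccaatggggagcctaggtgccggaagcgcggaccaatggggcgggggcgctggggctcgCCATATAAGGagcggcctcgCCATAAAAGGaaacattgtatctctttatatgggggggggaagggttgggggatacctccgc
Zfp36l1: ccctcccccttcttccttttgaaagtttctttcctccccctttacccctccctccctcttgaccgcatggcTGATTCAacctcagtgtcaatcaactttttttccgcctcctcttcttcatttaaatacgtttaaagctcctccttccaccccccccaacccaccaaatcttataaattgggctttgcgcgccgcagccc
Maff: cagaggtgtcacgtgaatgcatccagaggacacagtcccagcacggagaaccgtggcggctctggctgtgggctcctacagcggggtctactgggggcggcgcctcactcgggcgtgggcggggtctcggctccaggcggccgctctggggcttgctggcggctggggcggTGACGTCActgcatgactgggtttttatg
Errfi1: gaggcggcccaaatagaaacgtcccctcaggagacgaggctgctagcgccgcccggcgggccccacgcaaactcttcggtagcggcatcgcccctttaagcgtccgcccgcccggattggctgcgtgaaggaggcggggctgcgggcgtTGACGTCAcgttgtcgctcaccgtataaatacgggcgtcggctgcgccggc
Dusp8: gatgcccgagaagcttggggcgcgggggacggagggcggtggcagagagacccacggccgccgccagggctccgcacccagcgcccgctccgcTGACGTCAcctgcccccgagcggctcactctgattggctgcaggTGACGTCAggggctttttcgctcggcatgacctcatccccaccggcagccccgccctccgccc
Dusp1: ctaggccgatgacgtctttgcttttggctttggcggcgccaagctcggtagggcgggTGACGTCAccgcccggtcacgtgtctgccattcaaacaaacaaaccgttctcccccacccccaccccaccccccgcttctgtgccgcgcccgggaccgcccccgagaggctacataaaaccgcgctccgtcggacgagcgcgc

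Knockout was compared with empty vector to ask what differs after editing of Ndufa4l2. Feedback genes were lower in knockout almost throughout: 13 of 14 tested fell (92.9%, beside 31.1% of all genes) and none rose (beside 29.5%). Their median log2 change was -0.61, and Spry1 fell the most (3.27-fold lower). In these bulk samples fewer cells expressing a gene and less RNA per cell cannot be told apart, and the mitochondrial share and Cd68, given elsewhere, were also highest in knockout. Myc, Srf, Nr4a1, Maff, Klf6 and both Ets factors fell as well, by 1.72-fold to 2.64-fold. AP-1 went the other way in part, with Fos, Fosb, Junb and Jund higher in knockout and Fosl2 lower. In all, 24 members fell and 6 rose at an adjusted p under 0.05 in edgeR's quasi-likelihood test with Benjamini-Hochberg adjustment over the 13326 genes (called genes below). The 30 called were 78.9% of the 38, beside 60.6% of all genes tested, and the split was 63.2% lower and 15.8% higher, beside 31.1% and 29.5%. The median over the members was -0.43 against -0.02 over all genes tested. At least a 2-fold change was called for 7 members that fell and 1 that rose, where 3.92% and 8.13% of all genes did so. Libraries of knockout lay wholly below those of empty vector for the 24 and wholly above them for the 6, as they did for 32.8% and 30.8% of all genes (63.7% in either direction).

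Rescue was compared with knockout to ask what re-expression of Ndufa4l2 goes with. Its mRNA in rescue was also above the empty-vector level (log2 change 2.20 ± 0.30, edgeR adjusted p = 8e-06). Of the 14 tested feedback genes 7 rose (50%, beside 29.5% of all genes) and none fell (beside 27.3%), with a median of 0.31. Dusp4 (2.61-fold higher) and Spry1 (2.47-fold higher) led. Among the 7, the call of Dusp8 was lost in 12 of 18 alternatives and that of Dusp6 in 4. Srf, Nr4a1, Myc and Maff rose, by 1.50-fold to 1.80-fold. Fosb, Fosl2, Jun, Junb, Jund, Klf2, Klf4, Klf10 and Zfp36l2 fell, with Klf2 falling the most (2.22-fold lower). Over all members 17 rose and 9 fell, 68.4% of the 38 beside 56.8% of all genes; 44.7% rose and 23.7% fell, beside 29.5% and 27.3%, with a median of 0.22 against 0.03. A change of at least 2-fold was called upward for Dusp4, Spry1 and Etv5 (2.07% of all genes) and downward for Klf2 (8.4% of all genes). For Etv5 the call was lost in 9 of 18 alternatives. The libraries of the groups lay apart for 19 members that were higher and 9 that were lower in rescue, beside 34.6% and 30.7% of all genes (65.3% together). The number that rose ran from 12 without rescue replicate 2 to 21 without empty-vector replicate 1. Scaling by library totals alone put the median of all genes at 0.22 and the split at 25 higher and 4 lower.

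Rescue was also compared with empty vector, to ask how far re-expressing and unedited cells differ. Here 16 members fell and 4 rose, 52.6% of the 38 beside 47.5% of all genes; 42.1% fell and 10.5% rose, beside 25.1% and 22.4%, with a median of -0.19 against -0.02. Klf2, Klf4, Klf6 and Klf10 were all lower in rescue, as were Etv4, Errfi1, Myc and 6 of 9 Dusp genes. Among these, the calls of Dusp7 and Dusp10 were each lost in 4 of 18 alternatives, and those of Dusp2 and Dusp16 in 2 each. Zfp36l1 was 2.07-fold and Fos 1.60-fold higher, and Jund and Ier5 rose too, the call of Ier5 being lost in 6 of 18 alternatives (adjusted p up to 0.114). The changes of at least 2-fold were those of Zfp36l1 upward (2.12% of all genes) and of Klf2 and Etv4 downward (3.29% of all genes). The libraries lay apart for 5 members higher and 16 lower in rescue, beside 26.5% and 28.6% of all genes (55.1% together). The number that rose was 7 without empty-vector replicate 1, and 7 against 15 lower with library totals alone. The comparisons share libraries (those of knockout stand in the first and the second), so a change of a gene in opposite directions in 2 of them is not independent evidence.

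**Figure D2:**
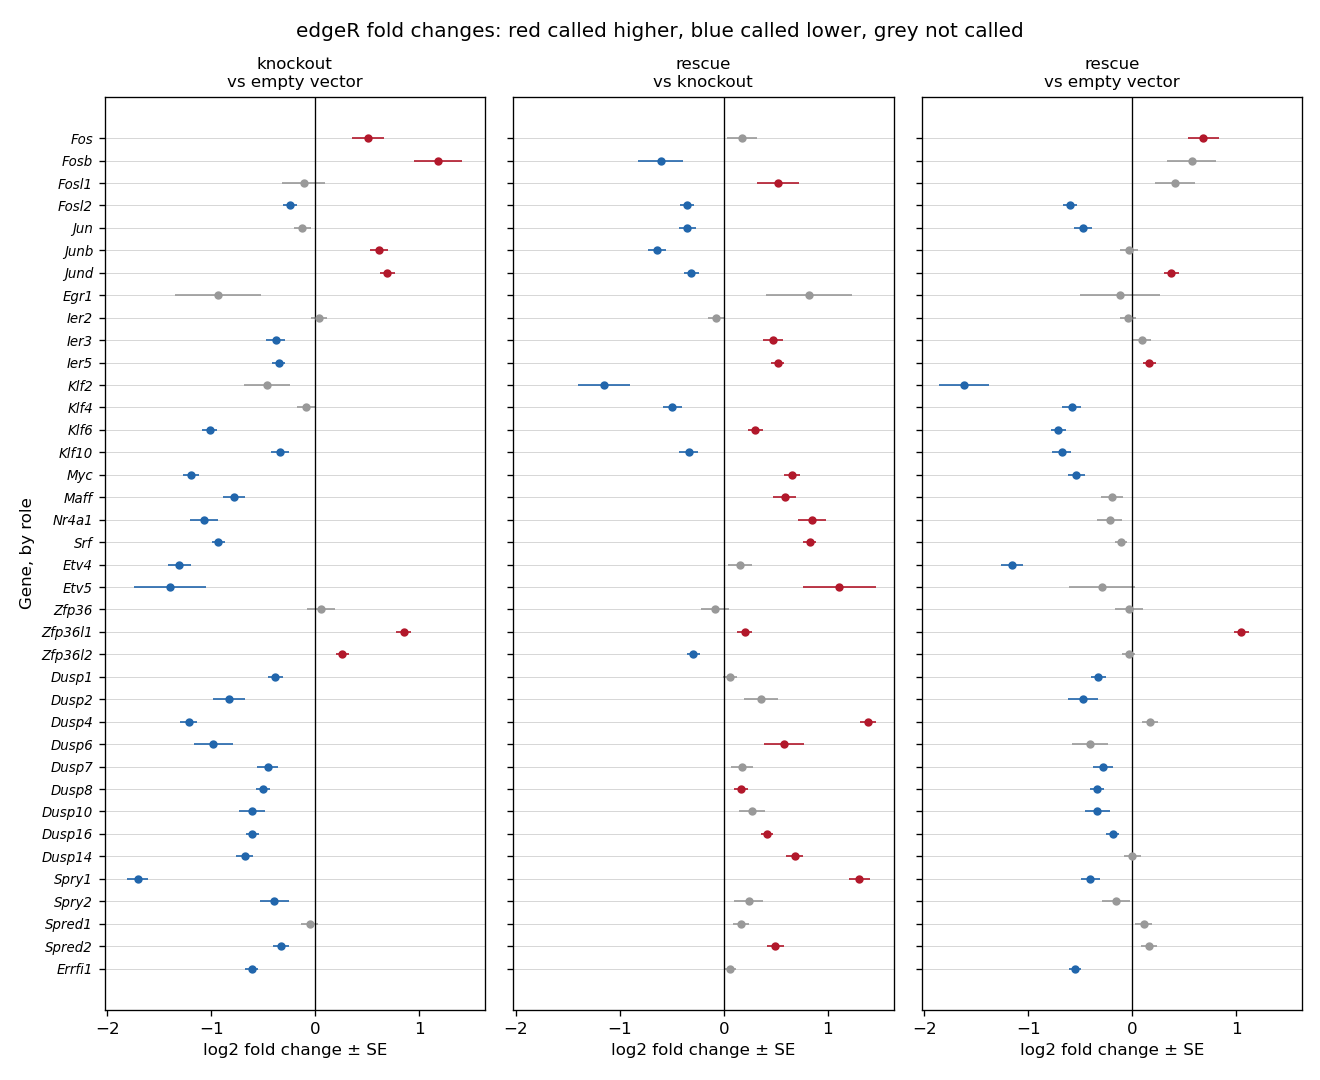
edgeR log2 fold change ± SE of the 38 tested genes in 3 panels, for knockout over empty vector, for rescue over knockout and for rescue over empty vector, ordered by role from Fos at the top to Errfi1 at the bottom. In the first panel 24 genes are called lower (blue) and 6 higher (red); in the second 9 are lower and 17 higher.

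**Figure D3:**
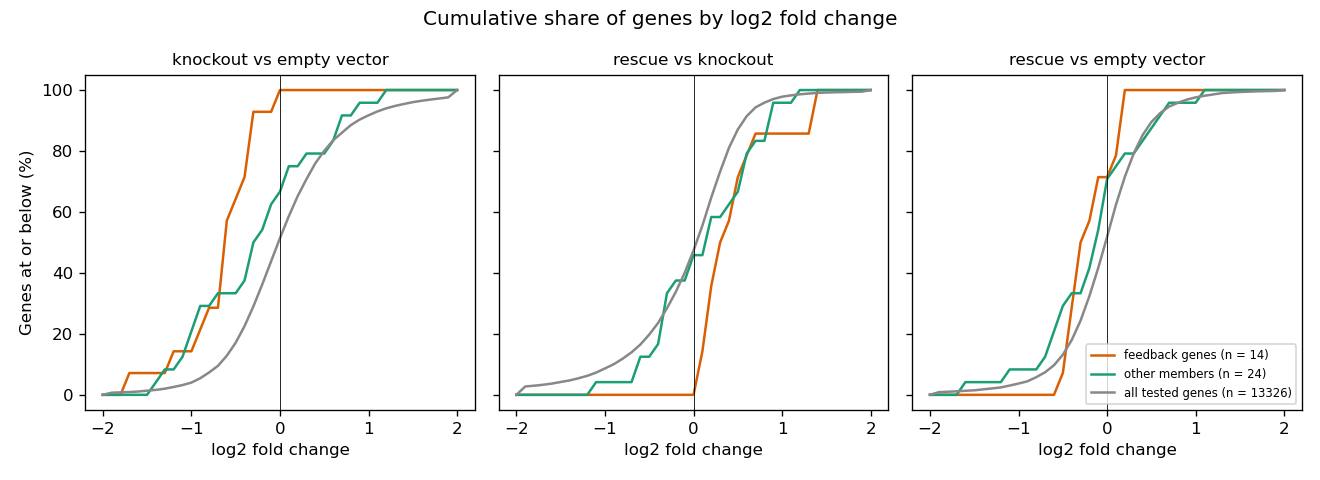
Cumulative share of genes (%) by log2 fold change in the 3 comparisons, for the 14 tested feedback genes, the 24 other tested members and all 13326 tested genes; values beyond 2 log2 units are drawn at the edge. The median of the feedback genes was -0.61 in knockout against empty vector and 0.31 in rescue against knockout.

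Sprouty and Spred proteins are inhibitors of Ras and Raf activation. Spry1 (chromosome 3, 37639947 to 37644598, plus strand, mm10) had 23.2, 26.8 and 28.0 CPM in rescue, 10.9, 9.50 and 10.9 CPM in knockout and 37.7, 32.3 and 32.7 CPM in empty vector. All knockout libraries lay far below all others, and the rescue libraries stayed below those of empty vector. Its log2 change was -1.71 ± 0.10 in knockout against empty vector (SE; edgeR adjusted p = 3.6e-11), 1.30 ± 0.10 in rescue against knockout (edgeR adjusted p = 1.9e-09) and -0.41 ± 0.09 in rescue against empty vector (edgeR adjusted p = 0.001). Spry2, its closest tested relative, stood at 8.98 ± 0.426 CPM in rescue, 7.59 ± 1.63 CPM in knockout and 9.96 ± 0.895 CPM in empty vector (SD, n = 3) and fell in knockout against empty vector by less (-0.40 ± 0.14, adjusted p = 0.021); this call was lost without knockout replicate 1 and without empty-vector replicate 3. Spred2 had 37.3, 41.2 and 45.2 CPM in rescue, 28.3, 30.0 and 29.2 CPM in knockout and 38.8, 34.5 and 36.5 CPM in empty vector. It was lower in knockout than in empty vector (-0.33 ± 0.08, adjusted p = 0.0012) and higher in rescue than in knockout (0.50 ± 0.08, adjusted p = 2.3e-05), with no overlap of libraries in either pair. Spred1 was the only tested feedback gene not called in knockout against empty vector (-0.06 ± 0.08, adjusted p = 0.57). Summed over the family, Spry1 made up 27.6% ± 0.199 of FPKM in rescue, 15.9% ± 1.60 in knockout and 34.7% ± 1.14 in empty vector (SD, n = 3).

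Dusp4 and Dusp6 are the phosphatases best known as ERK-induced ERK inhibitors, the first nuclear and the second cytoplasmic. Dusp4 (chromosome 8, 34807297 to 34819894, plus strand) had 71.1, 82.2 and 88.6 CPM in rescue, 32.0, 29.2 and 30.8 CPM in knockout and 75.6, 68.7 and 70.2 CPM in empty vector. The libraries of rescue and empty vector overlapped and all of knockout lay below them. It fell in knockout against empty vector (-1.22 ± 0.08, adjusted p = 1.7e-10) and rose in rescue against knockout (1.39 ± 0.08, adjusted p = 2.6e-11). Dusp6 had 9.12, 11.5 and 11.4 CPM in rescue, 6.74, 6.94 and 7.50 CPM in knockout and 18.4, 10.1 and 13.2 CPM in empty vector, with empty-vector replicate 1 well above the rest. Its fall in knockout against empty vector was -0.98 ± 0.19, adjusted p = 0.00035. Its rise in rescue against knockout (0.58 ± 0.19, adjusted p = 0.018) was lost without any 1 of rescue replicates 2 and 3 or knockout replicates 1 and 2, with an adjusted p of up to 0.066. Dusp7, the other cytoplasmic ERK phosphatase tested, was 1.37-fold lower in knockout than in empty vector and did not pass in rescue against knockout (0.17 ± 0.10, adjusted p = 0.16).

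Dusp1 and Dusp2 are nuclear phosphatases encoded by immediate-early genes themselves. Dusp1, whose promoter holds the cyclic AMP response element printed above, had 99.0, 98.7 and 106 CPM in rescue, 105, 97.6 and 89.8 CPM in knockout and 116, 134 and 131 CPM in empty vector. Rescue and knockout libraries overlapped and both lay below those of empty vector, with log2 changes of -0.39 ± 0.07 in knockout and -0.33 ± 0.07 in rescue against empty vector (adjusted p = 9.3e-05 and 0.00075, edgeR). Dusp2 fell in knockout against empty vector (-0.83 ± 0.16, adjusted p = 0.00012) and in rescue against empty vector (-0.48 ± 0.15, adjusted p = 0.013); the second call was lost without rescue replicate 1 (adjusted p = 0.111) and without empty-vector replicate 2 (adjusted p = 0.0558). Dusp8, Dusp10 and Dusp16 act mainly on JNK and p38, and all fell in knockout against empty vector, with log2 changes of -0.50 ± 0.07, -0.61 ± 0.12 and -0.61 ± 0.06. Dusp16 rose again in rescue against knockout (0.42 ± 0.06, adjusted p = 8.7e-06), Dusp10 did not pass (0.27 ± 0.13, adjusted p = 0.077), and the call of Dusp8 (0.16 ± 0.07, adjusted p = 0.045) was lost in 12 of 18 alternatives. Dusp14, a small atypical member of the family, had 42.9, 39.6 and 44.4 CPM in rescue, 29.0, 24.4 and 25.7 CPM in knockout and 38.3, 43.2 and 45.4 CPM in empty vector. Its rescue and empty-vector libraries overlapped, while knockout lay below both (-0.68 ± 0.08, adjusted p = 8e-07). Errfi1, which binds and inhibits the EGF receptor, was at 74.2, 75.1 and 76.8 CPM in rescue, 73.2, 72.0 and 71.8 CPM in knockout and 105, 116 and 111 CPM in empty vector. It was lower than empty vector in knockout (-0.61 ± 0.06, adjusted p = 3e-08) and in rescue (-0.56 ± 0.06, adjusted p = 3.2e-07), and no difference between rescue and knockout was called (0.06 ± 0.06, adjusted p = 0.41).

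**Figure D4:**
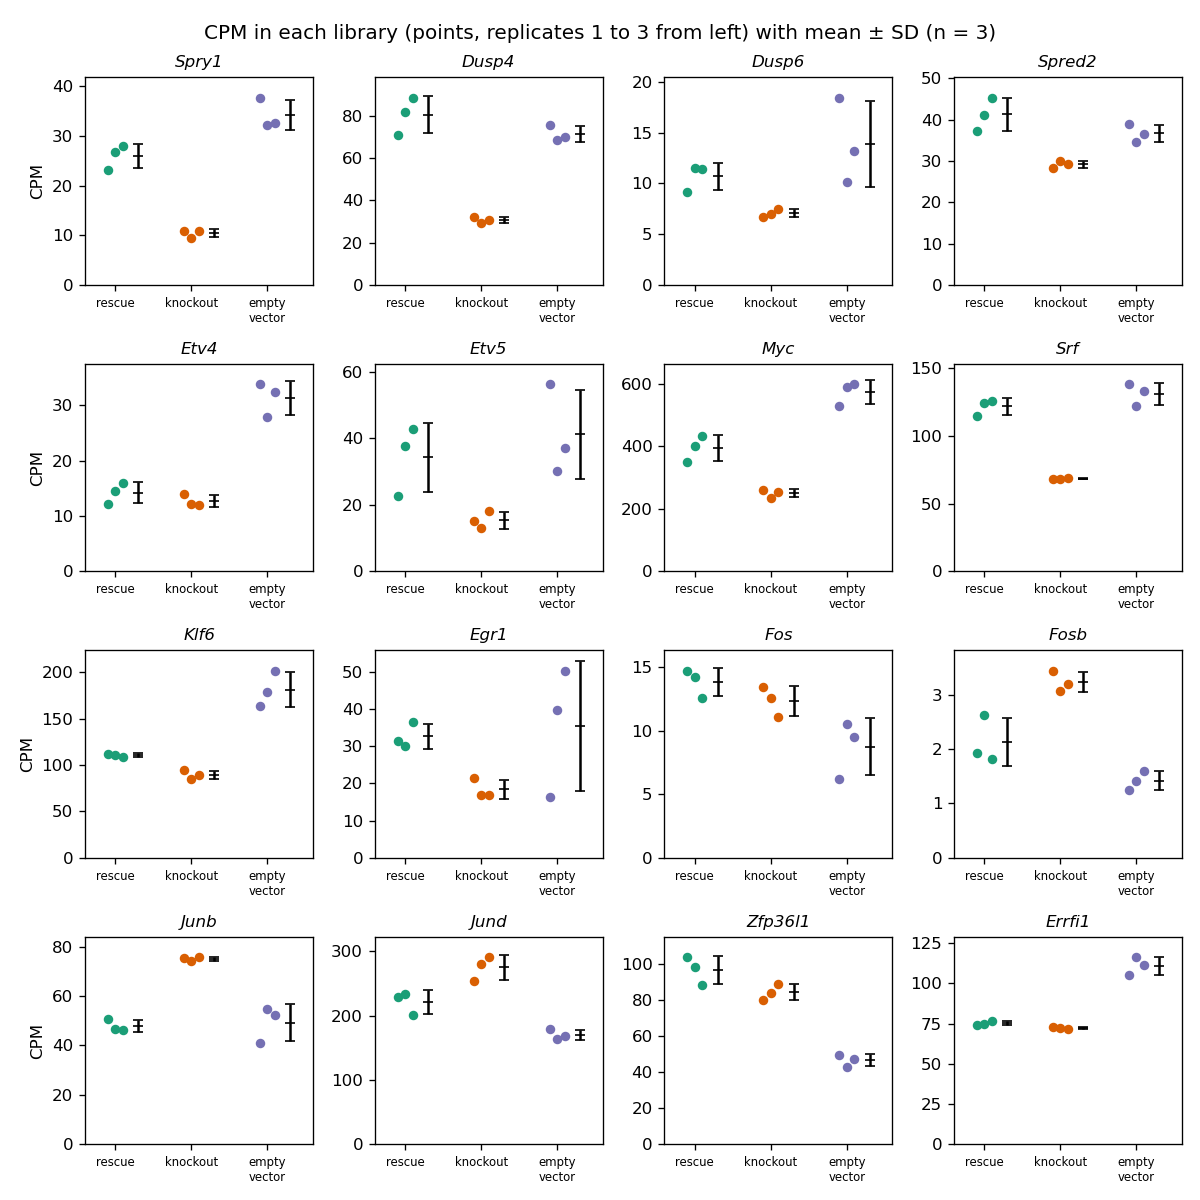
CPM of 16 genes in each library (points, replicates 1 to 3 from left to right) with mean ± SD (n = 3), for rescue, knockout and empty vector. Spry1, Dusp4, Myc and Srf have all knockout points below all others, and Junb and Jund have them above.

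Etv4 and Etv5 are Ets factors of the PEA3 group, used as markers of ERK output. Etv4 (chromosome 11, 101769742 to 101785371, minus strand) had 12.2, 14.5 and 16.0 CPM in rescue, 13.9, 12.2 and 12.0 CPM in knockout and 33.8, 27.8 and 32.3 CPM in empty vector. Rescue and knockout overlapped and every library of either lay below every empty-vector library. The change was -1.31 ± 0.11 in knockout against empty vector (adjusted p = 4.5e-09, edgeR) and -1.15 ± 0.11 in rescue against empty vector (adjusted p = 5.5e-08, edgeR), and did not pass in rescue against knockout (0.15 ± 0.11, adjusted p = 0.26). Etv5 had 22.5, 37.6 and 42.7 CPM in rescue, 15.3, 13.0 and 18.1 CPM in knockout and 56.2, 30.2 and 37.2 CPM in empty vector. Knockout was lowest, but rescue and empty-vector libraries varied among themselves by 1.90-fold and 1.86-fold between the highest and the lowest. It fell in knockout against empty vector (-1.40 ± 0.35, adjusted p = 0.012), and its rise in rescue against knockout (1.11 ± 0.35, adjusted p = 0.034) was lost in 9 of 18 alternatives.

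Myc, the growth-promoting transcription factor, was among the most abundant members. It had 349, 401 and 432 CPM in rescue, 259, 236 and 254 CPM in knockout and 528, 590.2 and 597 CPM in empty vector (chromosome 15, 61985391 to 61990374, plus strand). The groups did not overlap, with knockout lowest, rescue between and empty vector highest: the log2 change was -1.19 ± 0.08 in knockout against empty vector (adjusted p = 2e-10, edgeR), 0.66 ± 0.08 in rescue against knockout (adjusted p = 6.7e-07, edgeR) and -0.54 ± 0.08 in rescue against empty vector (adjusted p = 1.3e-05, edgeR). Srf, the serum response factor that binds CArG boxes, of which its own promoter printed above holds a pair, had 115, 124 and 126 CPM in rescue, 68.2, 67.9 and 69.1 CPM in knockout and 138, 122 and 133 CPM in empty vector. Knockout libraries differed by at most 1.02-fold among themselves and lay below all others (-0.94 ± 0.06, adjusted p = 2.7e-10 against empty vector and 0.83 ± 0.06, adjusted p = 1.5e-09 for rescue against knockout). Between rescue and empty vector the libraries of Srf overlapped (-0.11 ± 0.06, adjusted p = 0.16). Nr4a1, an orphan nuclear receptor, had 10.3, 11.4 and 9.37 CPM in rescue, 6.29, 5.29 and 5.65 CPM in knockout and 10.3, 13.0 and 13.0 CPM in empty vector, and Maff, a small Maf protein, averaged 17.8 ± 1.70 CPM in rescue, 11.9 ± 1.05 CPM in knockout and 20.1 ± 2.19 CPM in empty vector (SD, n = 3). Both fell in knockout against empty vector (-1.07 ± 0.13, adjusted p = 9.9e-07 and -0.78 ± 0.11, adjusted p = 4e-06) and rose in rescue against knockout (0.85 ± 0.13, adjusted p = 2.1e-05 and 0.59 ± 0.11, adjusted p = 0.00014).

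The AP-1 subunits did not move together. Jund, the most abundant of them, had 229, 234 and 200.5 CPM in rescue, 254, 281 and 291 CPM in knockout and 179, 164 and 168 CPM in empty vector. The order of groups was knockout, rescue and empty vector from high to low without overlap (0.69 ± 0.07, adjusted p = 9e-08 in knockout against empty vector, -0.31 ± 0.07, adjusted p = 0.00085 in rescue against knockout). The second of these calls was lost with library totals alone (edgeR adjusted p = 0.104). Junb had 50.8, 46.7 and 46.4 CPM in rescue, 75.3, 74.0 and 75.6 CPM in knockout and 40.8, 54.6 and 52.3 CPM in empty vector, so that knockout was above both other groups, which overlapped. It rose in knockout against empty vector (0.61 ± 0.09, adjusted p = 6.4e-06) and fell in rescue against knockout (-0.64 ± 0.09, adjusted p = 4e-06). The annotated span of Junb shares 351 bases with Prdx2 on the other strand, which had up to 3072 counts in a library. The strand setting of the counting is not stated, so reads from those bases cannot be told apart. The deposited gene length of Junb is 2301 bases. The log2 change of Prdx2 was 0.30 in knockout against empty vector and 0.11 in rescue against knockout.

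Jun and Fosl2, a Jun partner of the Fos family, were lowest in rescue. Jun had 84.1, 86.8 and 82.1 CPM in rescue, 110.5, 111 and 102 CPM in knockout and 97.5, 126 and 129 CPM in empty vector. Its change in knockout against empty vector was -0.13 ± 0.08, adjusted p = 0.21, and without empty-vector replicate 1 and in 2 other alternatives this difference was called, with the same sign. Jun fell in rescue against knockout (-0.35 ± 0.09, adjusted p = 0.0019; lost with library totals alone, adjusted p = 0.155) and against empty vector (-0.48 ± 0.08, adjusted p = 0.00018). Fosl2 averaged 100.3 ± 4.88 CPM in rescue, 128 ± 1.31 CPM in knockout and 152 ± 14.1 CPM in empty vector (SD, n = 3), and fell in each comparison (-0.25 ± 0.07, adjusted p = 0.0037 in knockout against empty vector; -0.35 ± 0.07, adjusted p = 0.00017 in rescue against knockout; -0.60 ± 0.07, adjusted p = 7.6e-07 in rescue against empty vector). Fos had 14.7, 14.2 and 12.6 CPM in rescue, 13.5, 12.6 and 11.1 CPM in knockout and 6.21, 10.5 and 9.51 CPM in empty vector. Rescue and knockout both lay above empty vector, where replicate 1 was lowest (0.51 ± 0.15, adjusted p = 0.0089 in knockout and 0.68 ± 0.15, adjusted p = 0.0012 in rescue against empty vector). For knockout the call of Fos was lost with library totals alone (edgeR adjusted p = 0.0748). Fosb was near the lower end of what can be measured, with 29 to 54 counts in rescue, 37 to 76 in knockout and 22 to 40 in empty vector. It was 2.27-fold higher in knockout than in empty vector (1.18 ± 0.23, adjusted p = 0.00017), and its fall in rescue against knockout (-0.61 ± 0.22, adjusted p = 0.022) was lost in 5 of 18 alternatives. Fosl1, which ERK is known to stabilise as a protein, did not pass in knockout against empty vector (-0.11 ± 0.21, adjusted p = 0.66); its rise in rescue against knockout (0.52 ± 0.20, adjusted p = 0.033) was lost in 4 of 18 alternatives.

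Egr1, a zinc-finger factor that is a classical readout of ERK and Srf, had 31.3, 30.1 and 36.5 CPM in rescue, 21.4, 17.0 and 16.9 CPM in knockout and 16.2, 39.7 and 50.2 CPM in empty vector (chromosome 18, 34859823 to 34864984, plus strand). Rescue lay above knockout in every library, but the empty-vector libraries spanned 3.09-fold, with replicate 1 below every knockout library and replicates 2 and 3 above all of them. Of 9043 genes averaging 10 CPM or more in empty vector, 11 genes including Egr1 (0.122%) spanned as much. No change of Egr1 passed in the edgeR fit of all 9 libraries (-0.94 ± 0.41, adjusted p = 0.094 in knockout against empty vector, 0.82 ± 0.41, adjusted p = 0.14 in rescue against knockout). Fitted to the 6 rescue and knockout libraries alone, edgeR called rescue above knockout (0.79, adjusted p = 1.5e-07). Without empty-vector replicate 1 the log2 changes were -1.28 (edgeR adjusted p = 4e-08) and 0.83 (edgeR adjusted p = 4.1e-06), and DESeq2 with all libraries gave an adjusted p of 0.037 and 0.074. The cause of the spread was not tested.

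Klf6, a Krüppel-like factor, had 112, 111 and 108 CPM in rescue, 94.3, 85.3 and 89.1 CPM in knockout and 163, 179 and 201 CPM in empty vector. It fell in knockout against empty vector (-1.02 ± 0.07, adjusted p = 4.4e-10), and its rise in rescue against knockout was small (0.30 ± 0.07, adjusted p = 0.0012), so that rescue remained below empty vector (-0.71 ± 0.07, adjusted p = 1.5e-07). Klf2, Klf4 and Klf10 had their lowest libraries in rescue. Klf2 had 2.85, 2.90 and 1.89 CPM in rescue, 4.89, 6.11 and 6.24 CPM in knockout and 5.06, 9.19 and 9.79 CPM in empty vector, the largest fall among the members in rescue against empty vector (-1.62 ± 0.24, adjusted p = 5.2e-05). Klf4 averaged 25.5 ± 2.85 CPM in rescue, 35.7 ± 3.54 CPM in knockout and 38.1 ± 1.43 CPM in empty vector and Klf10 23.6 ± 1.00 CPM in rescue, 29.9 ± 1.63 CPM in knockout and 37.9 ± 4.71 CPM in empty vector (SD, n = 3). Both fell in rescue against knockout (-0.50 ± 0.09, adjusted p = 9.4e-05 and -0.34 ± 0.09, adjusted p = 0.0032; for Klf10 this was lost with library totals alone, adjusted p = 0.176), while in knockout against empty vector Klf10 fell (-0.34 ± 0.09, adjusted p = 0.0022) and Klf4 did not pass (-0.09 ± 0.09, adjusted p = 0.4).

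The Ier genes are named for their immediate-early response. Ier5 had 91.4, 94.0 and 91.8 CPM in rescue, 65.0, 65.8 and 63.1 CPM in knockout and 77.5, 81.1 and 88.9 CPM in empty vector, with knockout below both other groups (-0.35 ± 0.06, adjusted p = 7e-05 against empty vector; 0.52 ± 0.06, adjusted p = 8.3e-07 for rescue against knockout). Ier3, an inhibitor of apoptosis that ERK phosphorylates, followed with -0.38 ± 0.09, adjusted p = 0.0018 in knockout against empty vector and 0.47 ± 0.09, adjusted p = 0.0003 in rescue against knockout. Ier2 was not called in any comparison. It had 37.3, 40.0 and 41.7 CPM in rescue, 39.3, 41.6 and 44.2 CPM in knockout and 37.9, 45.6 and 39.4 CPM in empty vector, and its largest log2 change over the 3 comparisons was -0.08 ± 0.08, adjusted p = 0.42 in rescue against knockout.

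Of the mRNA decay factors, Zfp36l1 differed most. It had 104, 98.2 and 88.6 CPM in rescue, 80.0, 84.1 and 88.9 CPM in knockout and 49.9, 43.1 and 47.3 CPM in empty vector, with every library of rescue and knockout above every library of empty vector (1.05 ± 0.07, adjusted p = 1.6e-09 in rescue and 0.85 ± 0.07, adjusted p = 7.7e-09 in knockout against empty vector). Rescue and knockout overlapped, and the call between them (0.20 ± 0.07, adjusted p = 0.022) was lost in 5 of 18 alternatives. Zfp36l2, the most abundant of the 3, stood at 234 ± 10.5 CPM in rescue, 286 ± 15.5 CPM in knockout and 239 ± 7.07 CPM in empty vector (SD, n = 3). It was higher in knockout than in empty vector (0.26 ± 0.06, adjusted p = 0.0014) and lower in rescue than in knockout (-0.29 ± 0.06, adjusted p = 0.00051); both calls were lost with library totals alone, with adjusted p = 0.155 and adjusted p = 0.138 in edgeR. Zfp36 itself, or tristetraprolin, did not pass in any comparison and was at 8.20 ± 1.05 CPM in rescue, 8.70 ± 1.33 CPM in knockout and 8.34 ± 0.511 CPM in empty vector (SD, n = 3).

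**Figure D5:**
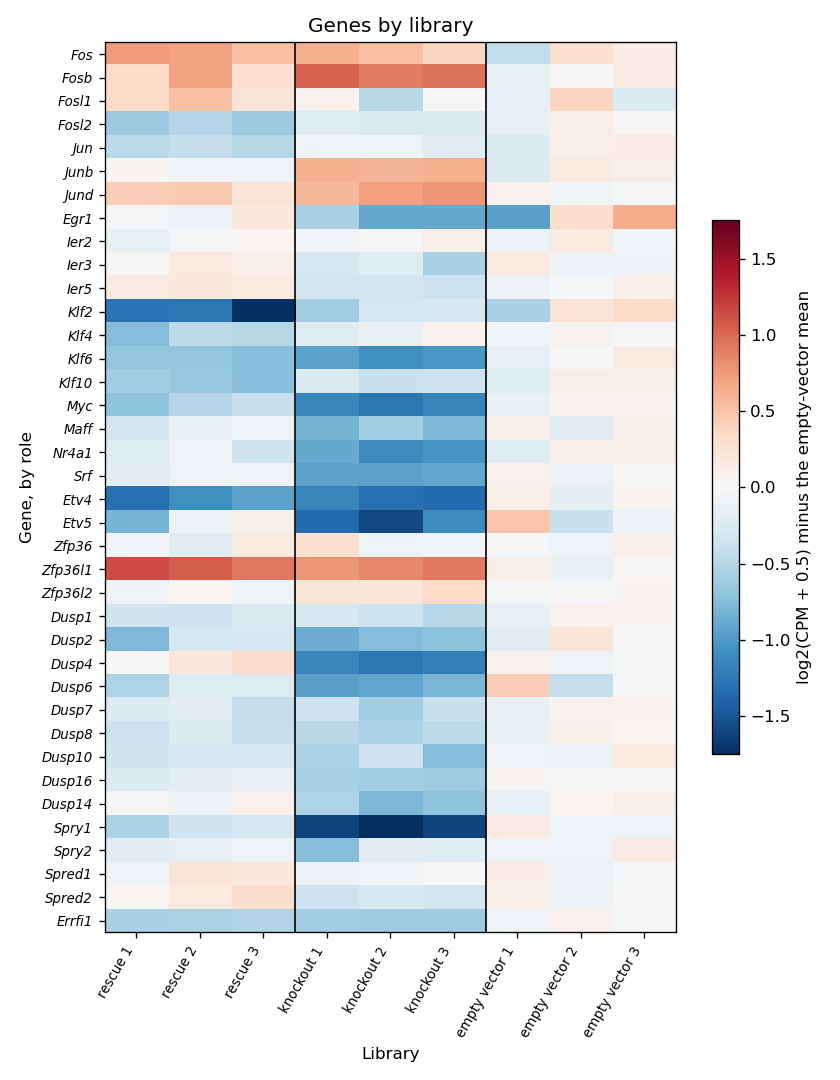
log2(CPM + 0.5) of the 38 tested genes minus their empty-vector mean, in 9 libraries ordered rescue, knockout and empty vector, with genes by role. The rows of the 9 Dusp genes and Spry1 are blue in knockout, Junb and Jund are red there, and empty-vector replicate 1 departs from replicates 2 and 3 in Egr1, Etv5 and Dusp6.

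Variation between libraries of a group was modest for most members. Among those averaging 10 CPM or more, the median ratio of the highest to the lowest library was 1.17 for 31 members in rescue, 1.11 for 29 in knockout and 1.18 for 32 in empty vector, beside 1.09, 1.10 and 1.13 over all genes at that level. Rescue replicate 1 was lowest of its group for Etv5 and also, among others, for Dusp4, Spry1, Spred2, Etv4 and Myc. The same library was highest, among others, for Fos, Junb, Klf6 and Zfp36l1. Etv5 spanned 1.90-fold in rescue, and 13 of 8993 genes at that level (0.145%), including Etv5, spanned as much. The cause was not tested. Empty-vector replicate 1 was lowest of its group for Egr1, Fos and Klf2 and also, among others, for Jun, Junb, Klf6 and Myc. It was highest for Etv5 and Dusp6 and also, among others, for Etv4, Dusp4 and Spry1. Over tested genes, chi-square over its degrees of freedom was 19.7 and 13.8 for its pairs with replicates 2 and 3. The pair of replicates 2 and 3 gave 7.22. Without empty-vector replicate 1, 27 members fell and 6 rose in knockout against empty vector.

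Other genes of the pathway were read from lists written with the results of these data known, and their counts stand beside 29.5% of all genes that rose and 31.1% that fell in knockout against empty vector, and 29.5% and 27.3% in rescue against knockout. Of 31 genes of the Ras and ERK cascade, 27 were tested. In knockout against empty vector 11 rose and 10 fell, with a median of 0.05. For the genes named from these lists, each called in the comparison it is given for, values are log2 changes ± SE. Rras2, a Ras-related GTPase, was lower (-0.66 ± 0.06), as was Sos1, which loads Ras with GTP (-0.56 ± 0.07), while Map2k5, the kinase above ERK5, was higher (0.90 ± 0.10). In rescue against knockout 13 rose and 7 fell, among them Rras2 (0.58 ± 0.06) and Sos1 (0.56 ± 0.07), which rose. Of 17 genes of the EGF receptor family and its ligands, 11 were tested, and 4 rose and 5 fell in knockout against empty vector. The ligand genes Nrg1 and Hbegf fell: Nrg1 averaged 125 ± 14.6 CPM in rescue, 67.8 ± 6.35 CPM in knockout and 236 ± 7.30 CPM in empty vector, and Hbegf 35.9 ± 3.35 CPM in rescue, 28.0 ± 1.32 CPM in knockout and 66.1 ± 4.75 CPM in empty vector (SD, n = 3). The receptor gene Erbb2 rose (0.75 ± 0.07). In rescue against knockout 3 rose and 5 fell, with Nrg1 rising (0.88 ± 0.08) and Erbb2 falling (-0.85 ± 0.08).

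Further genes used as ERK output did not share 1 direction. Of 30 listed, 21 were tested. In knockout against empty vector 9 rose and 6 fell (42.9% and 28.6%, beside 29.5% and 31.1% of all genes), with a median of 0.15. In rescue against knockout 4 rose and 11 fell (19% and 52.4%, beside 29.5% and 27.3% of all genes), with a median of -0.25. Both medians had the opposite sign to those of the feedback genes. Ccnd1, cyclin D1, averaged 823 ± 38.8 CPM in rescue, 322 ± 35.0 CPM in knockout and 1130.1 ± 36.1 CPM in empty vector, and Plat, tissue plasminogen activator, 55.7 ± 4.06 CPM in rescue, 303 ± 21.8 CPM in knockout and 64.5 ± 6.21 CPM in empty vector (SD, n = 3), so that Ccnd1 was lowest and Plat highest in knockout. Of 58 other primary response genes, 56 were tested, and 20 rose and 23 fell in knockout against empty vector, with a median of -0.11. Atf3, a stress-induced factor of the AP-1 superfamily, fell (-1.52 ± 0.08), as did Edn1, endothelin (-1.50 ± 0.11), whereas the kinase gene Sgk1 rose (3.13 ± 0.11) and so did Bcl6 (1.71 ± 0.07). In rescue against knockout 20 rose and 16 fell, with Edn1 up (2.23 ± 0.11) and Sgk1 down (-2.56 ± 0.10).

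Other dual-specificity and related phosphatases, 14 tested of 18, fell in 8 cases and rose in 1 in knockout against empty vector, and rose in 8 and fell in 1 in rescue against knockout. In each comparison 64.3% of them were called, near the 60.6% and 56.8% of all genes; 57.1% were lower and 7.14% higher in knockout, beside 31.1% and 29.5% of all genes. Dusp3, a small phosphatase of ERK and JNK, was -0.82 ± 0.06 and 0.51 ± 0.06 in those comparisons, and Dusp11, which acts on RNA, -0.82 ± 0.06 and 0.41 ± 0.06. Of 24 genes of the JNK and p38 cascades 20 were tested, of which 8 rose and 8 fell in knockout against empty vector, and 9 rose and 4 fell in rescue against knockout. Mknk2, a kinase of eIF4E, was highest in knockout (116 ± 9.24 CPM in rescue, 252 ± 9.21 CPM in knockout and 59.1 ± 4.73 CPM in empty vector, SD, n = 3), whereas Mknk1 was lowest there (78.6 ± 7.25 CPM in rescue, 55.2 ± 0.483 CPM in knockout and 121 ± 11.5 CPM in empty vector). Ras GTPase-activating proteins and ERK inhibitors rose in 3 and fell in 4 of 15 tested cases in knockout against empty vector, and rose in 4 and fell in 6 in rescue against knockout, with Rasa3 at -0.82 ± 0.07 and 0.32 ± 0.07 in those comparisons.

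Cofactors of Srf and its cytoskeletal targets were called in each direction about as often as all genes in knockout against empty vector. Of 21, 17 were tested, and 5 rose and 5 fell (29.4% each, beside 29.5% and 31.1% of all genes). In rescue against knockout 6 rose and 7 fell (35.3% and 41.2%, beside 29.5% and 27.3% of all genes). Fhl2, a LIM protein induced by Srf, fell in knockout against empty vector (-2.37 ± 0.08) and rose in rescue against knockout (2.05 ± 0.08), like Cnn2 (-1.08 ± 0.07 and 1.00 ± 0.07). The integrin gene Itga5 did the opposite (0.53 ± 0.08 and -0.84 ± 0.08). Binding and decay factors of AU-rich mRNA rose in 7 and fell in 9 of 22 cases in knockout against empty vector (31.8% and 40.9%). They rose in 9 and fell in 2 in rescue against knockout (40.9% and 9.09%). Dcp2, a decapping enzyme, was -0.96 ± 0.08 and 0.36 ± 0.08 in those comparisons. Partners of AP-1 and further Maf genes rose in 6 and fell in 7 of 17 tested in knockout against empty vector (35.3% and 41.2%). They rose in 7 and fell in 7 in rescue against knockout (41.2% each). In the first of these comparisons Atf5 was at 1.46 ± 0.08 and Bach1 at 0.89 ± 0.08.

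Marker genes of other cell types were read in the same libraries, since immediate-early genes are active in many cells. The summed level of 10 leukocyte markers was 39.0 to 44.5 CPM in rescue, 211 to 228 CPM in knockout and 78.3 to 84.2 CPM in empty vector. All 4 tested markers (Cd68, Cd79a, Lyz2 and Csf1r) rose in knockout against empty vector, where 29.5% of all genes rose, with a median log2 change of 1.63. They fell in rescue against knockout, where 27.3% of all genes fell. Nearly all of the sum was Cd68, a lysosomal protein (35.9 ± 3.16 CPM in rescue, 205 ± 9.58 CPM in knockout and 76.3 ± 3.61 CPM in empty vector, SD, n = 3), while Cd3e, Itgam and Adgre1 were at 0, and no library had over 2 counts of Ptprc or over 1 of Tyrobp. Their part in the results was not tested. The sum for 6 fibroblast markers was 28.4 to 30.5 CPM in rescue, 60.7 to 71.2 CPM in knockout and 26.5 to 33.6 CPM in empty vector, mostly Pdgfrb, with Lum at 0 and Dcn at no more than 1 count. Endothelial markers summed to 0.164 to 0.377 CPM in rescue, 0.590 to 1.08 CPM in knockout and 0.401 to 0.836 CPM in empty vector.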

How the data were processed

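Poly(A) RNA was sequenced on an Illumina platform, with directional and non-directional library preparation both described, per the labels' protocols. The deposited table holds raw read counts and FPKM for each gene and library, per the file headers, and FPKM served only to compare levels between genes. Group means, log2 fold changes and p-values of the authors stand in the same deposited table; only their signs and calls were compared with those here. CASAVA, HISAT2, HISAT and TopHat2 and the build mm10 are named, without roles, per the submitters' processing notes, and no read counter is named there. The series text gives the knockout a smaller number of replicates than the labels and the table do (3), and all 3 were used.

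The test was edgeR 4.0.16 under R 4.3.3 (filterByExpr on the groups, TMM factors, robust quasi-likelihood fit of group means to all 9 libraries, F-tests, Benjamini-Hochberg adjustment over 13326 genes, called under 0.05). Standard errors were derived from F (absolute log2 change over root F). The script was checked on simulated counts. Alternatives used DESeq2 1.42.0, limma 3.58.1 with voom, other scalings, filters and sample sets. Libraries of 1 group were not duplicates of each other: chi-square over its degrees of freedom was 3.56 to 19.7. Named genes were all members, and, of each other list, up to 4 with the smallest adjusted p in knockout against empty vector and in rescue against knockout. Members and lists were chosen with earlier results of these data known, so the counts of members are descriptions.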

Additional observations from a re-analysis of the deposited data

How the results depend on the processing

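Over 9 alternatives in scaling, filter, tool or sample set and 9 that leave out 1 library, no member reversed a called direction. Scaling by library totals alone put the median of all genes at -0.175 in knockout against empty vector and 0.217 in rescue against knockout; the median of the members was then -0.58 and 0.40, only 4 members were lower in rescue against knockout, and 7 were higher in rescue against empty vector. Leaving out 1 library, knockout against empty vector gave 6 members higher in each case, 23 to 27 lower and a median of -0.49 to -0.40. Rescue against knockout gave 12 to 21 higher, 8 to 9 lower and a median of 0.22 to 0.27, and rescue against empty vector gave 3 to 7 higher, 13 to 17 lower and a median of -0.21 to -0.12. The count of 7 came without empty-vector replicate 1 and the median of -0.12 without rescue replicate 1; the cause was not tested. Same-numbered libraries did not deviate together (correlations of -0.15 to 0.045), and 0 of 9 libraries correlated best with its own number. With the replicate number as a block, 6 members were higher and 24 lower in knockout against empty vector, 15 and 9 in rescue against knockout and 4 and 16 in rescue against empty vector. In the authors' deposited table all 38 members had the same sign as here, once its knockout over rescue values were turned round, and 1, 4 and 4 calls differed in those comparisons. Low counts limit Fosb and Egr2.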
